A study of Sus scrofa with 14 samples.

Results

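The genes described here store iron, carry it across membranes, or regulate both in porcine knee tissue. They were chosen by name, by a rule with no measured value in it, though with earlier results of these data known: FTH1, FTL, TFRC, SLC40A1, SLC11A2, HMOX1, SLC39A14, ACO1, IREB2 and NCOA4, 10 genes in all. Of these, 8 had a row under their symbol among the 25880 genes of the count table, and 6 of the 8 had reads and were tested. FTH1 had no row under its symbol. Its row carries an identifier alone, and was taken as FTH1 because the study's tables pair the 2 through the same test values in both zones. It is described beside the 6 but not counted with them. The study itself listed FTH1 and FTL among its highly expressed changed genes on these samples, so their direction between cells and tissue is not independent evidence.

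RNA was sequenced from 14 libraries of skeletally mature female pigs. There were 2 libraries of outer P3 cells and 3 of inner P3 cells, which are medial meniscus cells released by enzymes from the outer or inner zone and grown in monolayer to passage 3. There were 3 libraries each of outer meniscus tissue, inner meniscus tissue and full thickness femoral articular cartilage, all explants held for 3 days in culture. P3 cells and explants were kept in one kind of medium, which held fetal bovine serum, a source of iron carriers. Cells and tissue came from different donors, and tissue was pulverized whereas cells were pelleted, so passaging, donor and handling cannot be told apart. Per the study's supplement, outer and inner explants were taken from the same menisci, but the labels do not say which libraries share one. The zones were fitted as unpaired, and p-values measure the spread between these libraries.

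Library totals ranged from 24440213 to 43304412 reads. Values are given as CPM, counts per 1000000 reads after TMM scaling, and changes as log2 fold changes with their standard error (SE) from edgeR's quasi-likelihood test over 15707 genes. A gene was called when its Benjamini-Hochberg adjusted p was below 0.01 and its log2 fold change exceeded 1 in size. Summed levels of 7 chondrocyte markers were 172 to 194 CPM in outer P3 cells and 294 to 482 CPM in inner P3 cells, against 2494 to 10548 CPM in outer tissue, 5086 to 29346 CPM in inner tissue and 36498 to 95166 CPM in cartilage. Chondrocyte transcripts were low in both P3 groups, with none of the 7 at 0. Outer tissue replicate 2 stood apart from its group, with 16.9 CPM summed over 8 endothelial markers against 184 and 462 CPM in the other outer tissue libraries. Of 7 listed erythroid markers 5 had a row, 2 of them at 0 in all libraries, and 0 were tested. Those with a row summed to at most 0.182 CPM in any library, a sum over part of the list.

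Cells take up transferrin-bound iron through the transferrin receptor (TFRC), keep it in ferritin, a shell of heavy (FTH1) and light (FTL) chains, and export it through ferroportin (SLC40A1). NCOA4 delivers ferritin to lysosomes so that its iron is released. Iron regulatory proteins IRP1 (ACO1, also the cytosolic aconitase) and IRP2 (IREB2) bind a stem-loop called the iron-responsive element (IRE) when iron is scarce. Bound at the 5′ end of a transcript, they block its translation, and bound at the 3′ end of TFRC mRNA they protect it from decay. In cartilage, iron overload and ferritin are studied in joint disease, since free iron drives oxidative damage.

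The IREs are printed because they sort these genes into storage and export on one side and uptake on the other. The form searched for was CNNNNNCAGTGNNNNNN, with all 5 bases before the CAGTGN loop able to pair with the 5 after it (G-T pairs allowed). This stem-loop was sought in RefSeq untranslated regions of Sscrofa11.1, read in the sense of the mRNA. It occurred in the 5′ untranslated region of 71 of 18350 genes (0.387%), and FTH1, FTL and SLC40A1 were among them. CAGTG alone, with no pairing asked for, occurred in 42.4% of them. Each line gives 30 bases, 5′ to 3′, with the unpaired C and the loop CAGTGN in capitals.
FTH1 5′ untranslated region, chr2:9535174-9535203, plus strand: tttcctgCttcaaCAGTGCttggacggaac
FTL 5′ untranslated region, chr6:54231193-54231222, plus strand: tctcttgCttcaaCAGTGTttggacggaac
SLC40A1 5′ untranslated region, chr15:94161660-94161689, minus strand: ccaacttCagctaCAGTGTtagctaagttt
The ferritin elements share the stem letters ttcaa and ttgga on either side of the loop, while SLC40A1 has agcta and tagct.

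TFRC has an annotated 3′ untranslated region of only 53 bases, with no match. In the 3000 bases past that annotated end, which the RefSeq model does not annotate as TFRC, the same search found 4 stem-loops. Of 20636 genes, 330 (1.60%) had any match in this window and 1, TFRC, had as many as 4 (0.00485%). They start 918, 1328, 1393 and 1440 bases past the annotated end, on the plus strand of chromosome 13, and are shown in that order with the same capitals.
TFRC first, chr13:133998465-133998494: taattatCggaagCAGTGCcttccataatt
TFRC second, chr13:133998875-133998904: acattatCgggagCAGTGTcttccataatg
TFRC, next in order, chr13:133998940-133998969: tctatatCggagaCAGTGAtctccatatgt
TFRC, last in order, chr13:133998987-133999016: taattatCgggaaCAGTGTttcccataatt
No match was found in the annotated untranslated regions of SLC11A2, HMOX1, SLC39A14, ACO1, IREB2 or NCOA4, which says only that this form is not in those windows. A match is a description of letters, and binding was not measured.

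Both ferritin chains were lower in P3 cells than in meniscus tissue of the same zone, and both had their highest mean level in cartilage. FTH1 (ENSSSCG00000014540, chromosome 2, 9535051 to 9537979 in Sscrofa11.1, as for all positions here) had 2352 and 2320.1 CPM in outer P3 cells, against 11038, 11168 and 16723 CPM in outer tissue. In the inner zone P3 cells had 2393, 2269 and 1881 CPM, against 12301, 12651 and 17717 CPM in inner tissue. Every P3 library lay far below every tissue library of its zone. In outer P3 cells FTH1 fell by 2.47 on the log2 scale (SE 0.30, adjusted p = 6.1e-05, edgeR), and in inner P3 cells it fell by 2.71 (SE 0.25, adjusted p = 4.5e-06, edgeR). By rank among all genes, FTH1 stood at 26 and 27 in outer P3 cells and 28 to 29 in inner P3 cells, against 4 to 5 in outer tissue, 4 to 7 in inner tissue and 1 to 5 in cartilage. FTH1 has processed pseudogenes, so how its reads were shared out is uncertain.

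FTL (ENSSSCG00000003153, chromosome 6, 54231121 to 54232756), the light chain that helps the shell form its mineral core, had 1855 and 1414 CPM in outer P3 cells, against 4771, 4915 and 7121 CPM in outer tissue. The inner zone had 920.3, 834 and 1065 CPM in P3 cells, against 4951, 5460 and 8295 CPM in inner tissue. The same tissue libraries were high for both chains, outer tissue replicate 2 and inner tissue replicate 3. In outer P3 cells FTL fell by 1.78 (SE 0.29, adjusted p = 4.7e-04, edgeR), and in inner P3 cells it fell by 2.73 (SE 0.26, adjusted p = 4.6e-06, edgeR). Without outer P3 replicate 148 the FTL value in the outer zone was -1.60 with an adjusted p of 0.0116 (edgeR), which is not called. Together the 2 chains took 0.403% to 0.447% of reads in outer P3 cells and 0.311% to 0.332% in inner P3 cells, against 1.76% to 2.41% in outer tissue, 1.75% to 2.60% in inner tissue and 2.56% to 3.31% in cartilage.

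**Figure D1:**
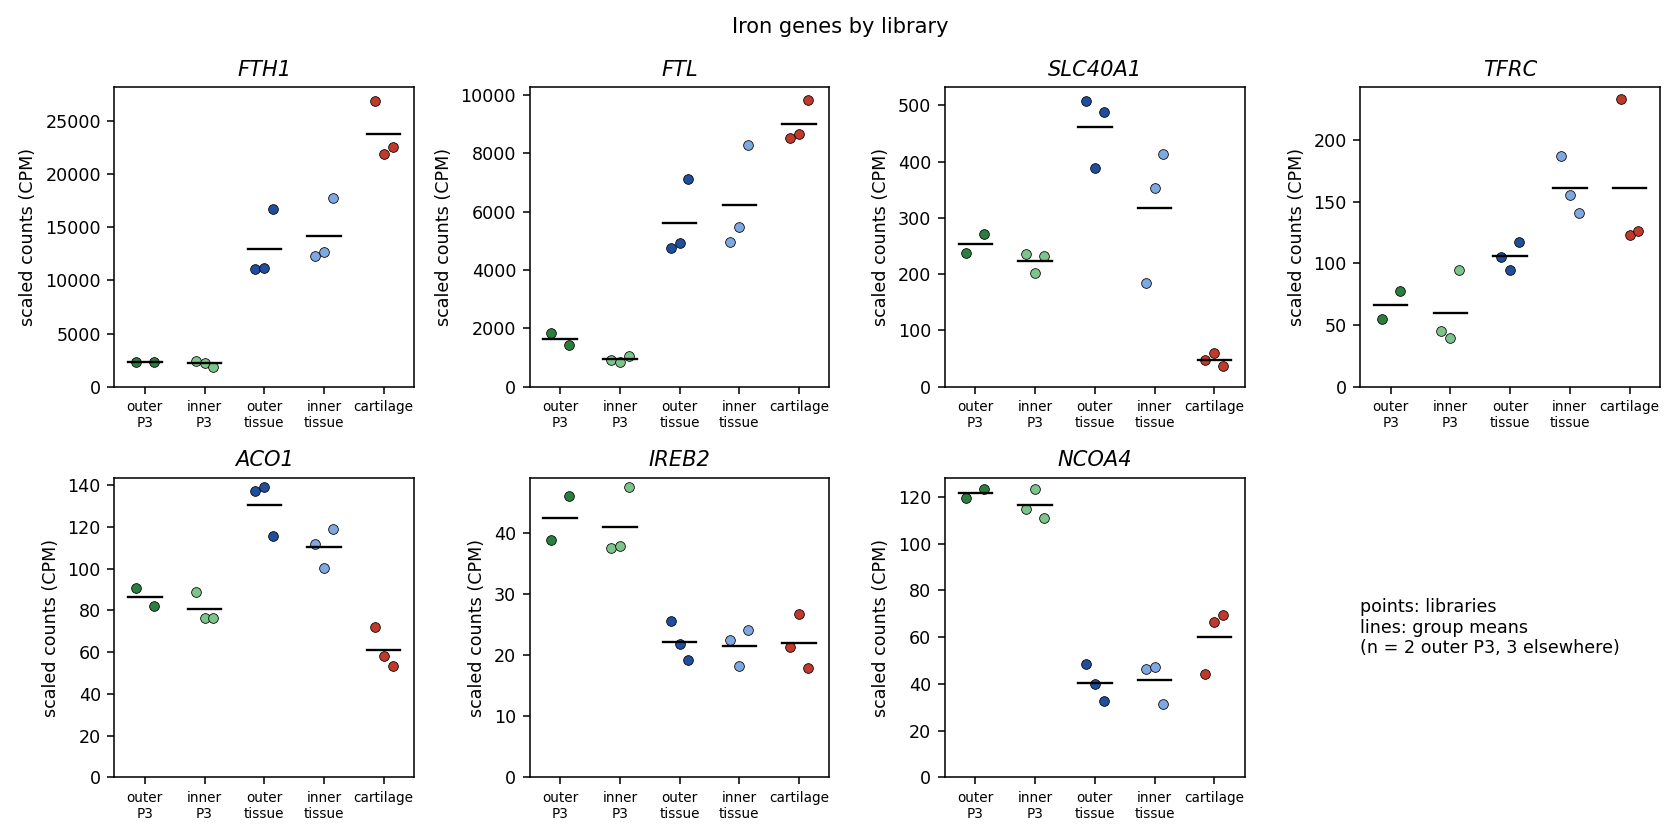
Scaled counts (CPM, y axis from 0) of FTH1 and of the 6 tested iron genes in each library (points) by group (x axis), with group means as lines; 2 libraries of outer P3 cells and 3 of every other group. FTH1 and FTL were low in P3 cells and high in cartilage, SLC40A1 was 36.4 to 60.0 CPM in cartilage against at least 185 CPM in every meniscus library, and NCOA4 and IREB2 were higher in P3 cells than in tissue of either zone.

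The chains did not keep one ratio in every group. FTH1 reads per FTL read were 1.27 and 1.64 in outer P3 cells, against 2.27 to 2.35 in outer tissue. They were 1.77 to 2.72 in inner P3 cells, against 2.14 to 2.48 in inner tissue, and the inner groups overlapped. Cartilage had 2.30 to 3.16. No test was made of these ratios, which depend on the length counted for each gene. FTL levels in the 2 outer P3 libraries lay above all 3 inner P3 libraries, while FTH1 levels of the zones overlapped. The FTL difference between outer and inner P3 cells was 0.80 (SE 0.27, adjusted p = 1, edgeR) and was not called.

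TFRC, which brings transferrin-bound iron into the cell, was lower in inner P3 cells than in inner tissue, in the same direction as the ferritin chains. TFRC (ENSSSCG00000011848, chromosome 13, 133976765 to 133997554) had 54.9 and 77.5 CPM in outer P3 cells, against 105, 94.9 and 117 CPM in outer tissue. The inner zone had 45.3, 39.8 and 94.6 CPM in P3 cells, against 187, 155 and 141 CPM in inner tissue. Replicate 149 was well above the other inner P3 libraries but below every inner tissue library. In inner P3 cells TFRC fell by 1.43 (SE 0.32, adjusted p = 0.00258, edgeR). Without inner tissue replicate 5, inner P3 replicate 147 or inner P3 replicate 148 the value was -1.30, -1.26 or -1.20 with adjusted p of 0.0106, 0.0145 or 0.0136 (edgeR), and the call was lost each time. In the outer zone the change was -0.68 (SE 0.36, adjusted p = 0.156, edgeR) and was not called, although the libraries did not overlap.

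Reads of ferritin heavy chain per TFRC read, a ratio of storage to uptake transcripts, were 29.9 and 42.8 in outer P3 cells, against 105 to 143 in outer tissue. Inner P3 cells had 19.9 to 57.0, against 65.7 to 126 in inner tissue, and cartilage had 115 to 179. In both zones every P3 library lay below every tissue library. The ratio of export to uptake transcripts gave another order. SLC40A1 reads per TFRC read were 3.50 and 4.32 in outer P3 cells, against 4.11 to 4.83 in outer tissue, and 2.45 to 5.20 in inner P3 cells, against 0.987 to 2.94 in inner tissue. Cartilage lay apart at 0.202 to 0.488. Protein and iron were not measured.

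**Figure D2:**
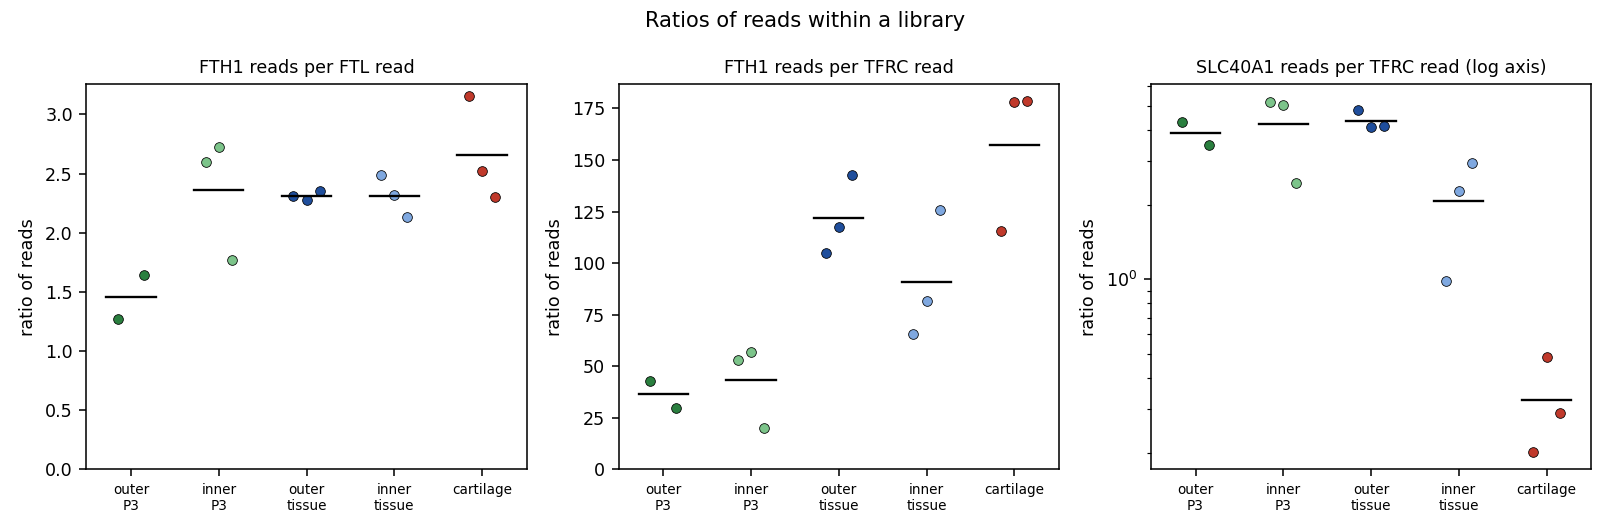
Reads of FTH1 per FTL read, FTH1 per TFRC read and SLC40A1 per TFRC read (y axis, unitless ratio of reads in a library, the last on a log axis) in each library (points) by group (x axis), with group means as lines. FTH1 reads per TFRC read were lowest in P3 cells, at 19.9 to 57.0. SLC40A1 reads per TFRC read were lowest in cartilage, at 0.202 to 0.488.

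Ferroportin was called against cartilage in all 4 meniscus groups, and between cells and tissue in neither zone. SLC40A1 (ENSSSCG00000027157, chromosome 15, 94140635 to 94161793), the only known exporter of iron from mammalian cells, had 509, 389.6 and 489 CPM in outer tissue and 185, 353 and 414 CPM in inner tissue, against 47.1, 60.0 and 36.4 CPM in cartilage. Every meniscus library exceeded every cartilage library, and inner tissue replicate 5 was the lowest of the tissue. SLC40A1 rose in outer tissue relative to cartilage by 3.27 (SE 0.28, adjusted p = 1.3e-05, edgeR) and in inner tissue by 2.73 (SE 0.27, adjusted p = 4.1e-05, edgeR). It was also higher than in cartilage after passaging, by 2.41 (SE 0.29, adjusted p = 2.0e-05, edgeR) in outer P3 cells, which had 237 and 271 CPM, and by 2.22 (SE 0.27, adjusted p = 1.7e-05, edgeR) in inner P3 cells, which had 235, 202 and 232 CPM.

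These 4 calls were kept under every alternative that was run. Between P3 cells and tissue SLC40A1 was not called, at -0.86 (SE 0.29, adjusted p = 0.0330, edgeR) in the outer zone and -0.51 (SE 0.26, adjusted p = 0.114, edgeR) in the inner zone. Macrophages and endothelial cells also use ferroportin. The 12 macrophage markers summed to 65.0 to 132 CPM in outer tissue and 44.9 to 77.5 CPM in inner tissue, against 49.9 to 74.1 CPM in cartilage, and the 8 endothelial markers to 16.9 to 462 CPM in outer tissue and 8.90 to 11.02 CPM in inner tissue, against 10.1 to 19.6 CPM in cartilage. CD14 alone averaged 54.2 CPM in outer tissue and 48.8 CPM in inner tissue, against 56.2 CPM in cartilage, and carried most of the macrophage sums in inner tissue and cartilage. Gene by gene, 4 of 12 macrophage markers were called higher in outer tissue than in cartilage (median 5.47) and 6 of 8 endothelial markers (median 8.50), beside 8.56% of all genes. In inner tissue 1 macrophage marker was higher and 1 lower than in cartilage, and 0 of 8 endothelial markers were called. The share of all genes called there was 9.05%. The outer library with the lowest endothelial sum, replicate 2, had 489 CPM of SLC40A1, close to replicate 6. P3 libraries had macrophage sums of 16.8 to 18.3 CPM in the outer zone and 15.8 to 16.8 CPM in the inner zone, mostly from CD14, with SLC40A1 still at 202 to 271 CPM over both zones. Of the 12 macrophage markers 3 were at 0 in outer P3 cells and 4 in inner P3 cells, and the part of these cells in the tissue values was not tested.

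ACO1 (ENSSSCG00000023807, chromosome 10, 33937833 to 34001895), which is IRP1 when it lacks its iron-sulfur cluster, was higher in meniscus tissue than in cartilage. It had 137, 139 and 116 CPM in outer tissue and 112, 100.2 and 119 CPM in inner tissue, against 72.1, 58.1 and 53.4 CPM in cartilage. ACO1 rose in outer tissue relative to cartilage by 1.09 (SE 0.14, adjusted p = 1.0e-04, edgeR), a call lost against a 2-fold change (adjusted p = 0.435, edgeR) and with a replicate block (adjusted p = 0.0119, edgeR). In inner tissue its difference of 0.85 (SE 0.13, adjusted p = 7.0e-04, edgeR) passed the p threshold and missed the fold threshold. ACO1 had 90.6 and 82.3 CPM in outer P3 cells and 88.7, 76.5 and 76.6 CPM in inner P3 cells, below every tissue library of the same zone. The differences were -0.60 (SE 0.15, adjusted p = 0.00774, edgeR) and -0.45 (SE 0.13, adjusted p = 0.0124, edgeR), and neither was called.

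IREB2 (ENSSSCG00000001756, chromosome 7, 47481539 to 47529199), which is IRP2 and is degraded when iron is plentiful, differed in the other direction. It had 38.7 and 45.9 CPM in outer P3 cells, against 25.5, 21.9 and 19.2 CPM in outer tissue. Those of the inner zone had 37.5, 37.8 and 47.5 CPM, against 22.4, 18.2 and 24.03 CPM in inner tissue. Every P3 library was above every tissue library, by 0.93 (SE 0.19, adjusted p = 0.00208, edgeR) in the outer zone and 0.93 (SE 0.17, adjusted p = 6.9e-04, edgeR) in the inner zone, short of the fold threshold. The call was reached without outer tissue replicate 6 (1.04), without outer P3 replicate 147 (1.05) and without inner tissue replicate 3 (1.01). Between the tissues the differences of IREB2 were 0.02 (SE 0.17) for outer tissue and -0.03 (SE 0.17) for inner tissue relative to cartilage.

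NCOA4 (ENSSSCG00000010399, chromosome 14, 90505614 to 90531302), the receptor that carries ferritin to lysosomes, was the tested member called higher in P3 cells of both zones. It had 119 and 124 CPM in outer P3 cells, against 48.5, 40.1 and 32.6 CPM in outer tissue. P3 cells of the inner zone had 115, 123 and 111 CPM, against 46.2, 47.3 and 31.4 CPM in inner tissue. P3 libraries of both zones lay within a narrow span above all tissue and cartilage libraries. NCOA4 rose by 1.59 in outer P3 cells (SE 0.22, adjusted p = 1.5e-04, edgeR) and by 1.48 in inner P3 cells (SE 0.20, adjusted p = 6.4e-05, edgeR). Against a 2-fold change neither was called, with adjusted p of 0.0268 and 0.0241 (edgeR). Cartilage had 44.2, 66.6 and 69.6 CPM, and the differences from it were -0.57 (SE 0.20, adjusted p = 0.0361, edgeR) in outer tissue and -0.53 (SE 0.20, adjusted p = 0.0615, edgeR) in inner tissue, neither called.

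Counted over the 6 tested members, outer P3 cells against outer tissue gave 2 calls, NCOA4 higher and FTL lower, where 16.7% of all tested genes were called, 8.36% higher and 8.30% lower. All 6 members had non-overlapping libraries there, as did 61.3% of all genes. Inner P3 cells against inner tissue gave 3 calls, NCOA4 higher and FTL and TFRC lower, against 25.7% of all genes, 13.6% higher and 12.1% lower, and 5 of 6 members did not overlap, against 62.6%. Median log2 fold changes of the members were -0.64 in the outer zone and -0.48 in the inner zone, beside -0.01 and 0.01 over all tested genes. With the FTH1 row the counts were 3 and 4. FTL and NCOA4 stood on opposite sides in both zones, and the median lies between them.

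Outer tissue against cartilage gave 2 calls, SLC40A1 and ACO1, both higher, against 15.1% of all genes, 8.56% higher and 6.50% lower, and 4 of 6 members did not overlap, against 46.2%. Inner tissue against cartilage gave 1, SLC40A1, against 9.05%, 4.45% higher and 4.60% lower, and 3 did not overlap, against 41.9%. The medians of the members were -0.28 and -0.01, beside 0.06 and 0.00 over all genes. FTH1 had 26933, 21901 and 22579 CPM in cartilage, above every meniscus library. Its difference was -0.88 (SE 0.24, adjusted p = 0.0117, edgeR) in outer tissue and -0.74 (SE 0.24, adjusted p = 0.0332, edgeR) in inner tissue, not called. Without outer tissue replicate 2 the outer difference was -1.10 with an adjusted p of 0.00460 (edgeR) and would be called. FTL had 8527, 8679 and 9816 CPM in cartilage, and its differences were -0.69 (SE 0.24, adjusted p = 0.0393, edgeR) in outer tissue and -0.53 (SE 0.24, adjusted p = 0.118, edgeR) in inner tissue.

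TFRC in cartilage split by library, with 233 CPM in replicate 1 and 123 and 126 CPM in the others. Its difference from cartilage was -0.60 (SE 0.32, adjusted p = 0.150, edgeR) in outer tissue and 0.00 (SE 0.32, adjusted p = 1, edgeR) in inner tissue. Set against cartilage, P3 cells gave 3 calls of 6 in each zone, where 31.2% of all genes were called for outer P3 cells (17.0% higher, 14.3% lower) and 32.5% for inner P3 cells (17.0% higher, 15.4% lower). All 6 members were without overlap in both, as were 70.3% and 66.6% of all genes. FTL fell by 2.46 (SE 0.30, adjusted p = 2.3e-05, edgeR) in outer P3 cells and fell by 3.26 (SE 0.26, adjusted p = 8.6e-07, edgeR) in inner P3 cells. FTH1 fell by 3.35 (SE 0.31) in outer P3 cells and fell by 3.45 (SE 0.26) in inner P3 cells, with adjusted p of 3.3e-06 and 6.2e-07 (edgeR). NCOA4 lay at the fold threshold, at 1.01 (SE 0.22, adjusted p = 0.00164, edgeR) in outer P3 cells, which was called, and 0.95 (SE 0.20, adjusted p = 0.00119, edgeR) in inner P3 cells, which was not. TFRC lay at the p threshold, at -1.28 (SE 0.37, adjusted p = 0.0104, edgeR) in outer P3 cells, not called, and -1.42 (SE 0.32, adjusted p = 0.00215, edgeR) in inner P3 cells, called. Which zones were called changed for both genes under several alternatives, and for TFRC turned round when only the libraries compared were fitted. With DESeq2, NCOA4 was no longer called in outer P3 cells, at 0.98, and TFRC was called there, at -1.31. Without cartilage replicate 1 the calls of NCOA4 in outer P3 cells and TFRC in inner P3 cells were lost, at 0.83 and -1.06. The direct comparison of outer and inner P3 cells called neither gene. These comparisons share the 3 cartilage libraries.

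**Figure D3:**
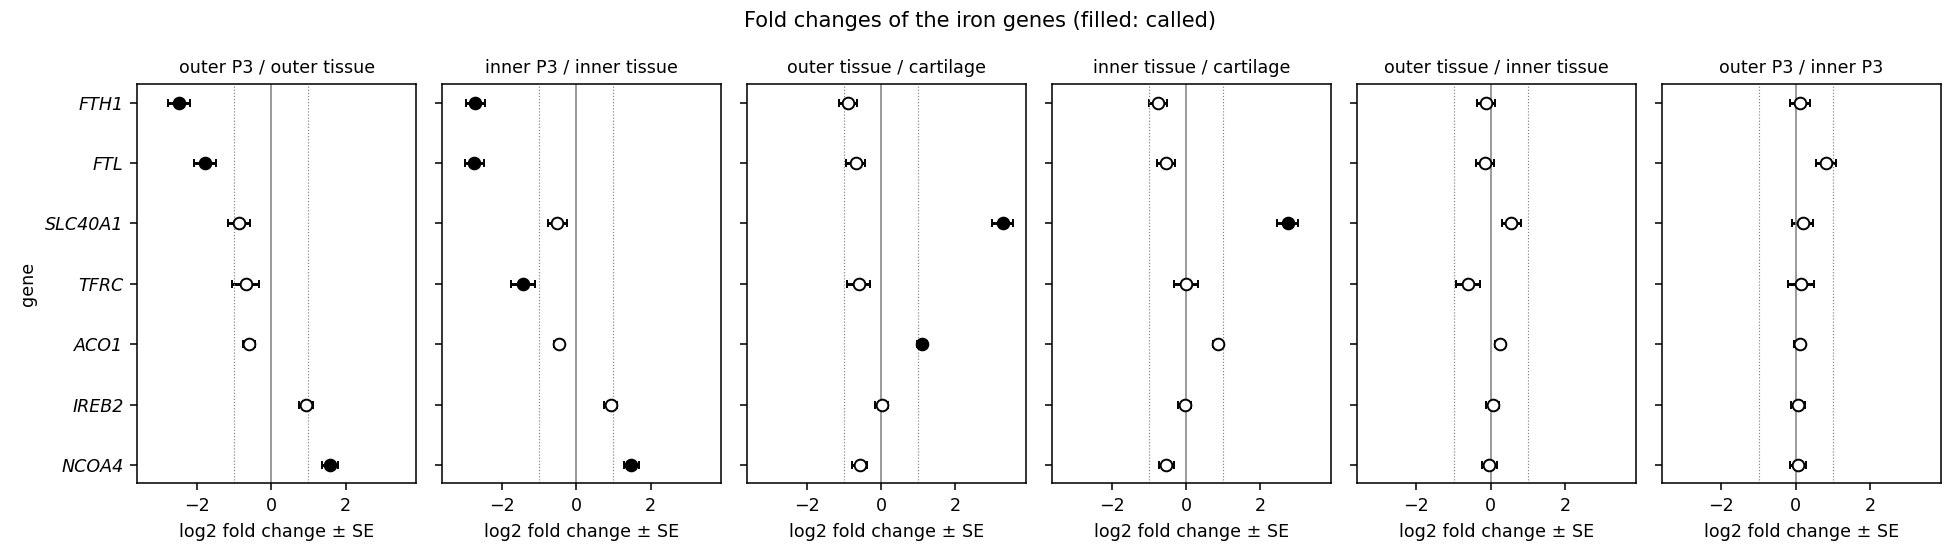
Log2 fold changes with SE (x axis) of FTH1 and the 6 tested iron genes (rows) in 6 comparisons (panels), first group over second; filled points were called and dotted lines mark the fold threshold. FTH1 and FTL are at -2.47 and -1.78 in outer P3 cells and at -2.71 and -2.73 in inner P3 cells, while SLC40A1 is at 3.27 and 2.73 in the panels of tissue over cartilage.

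No member was called between zones. Outer tissue against inner tissue gave 0 of 6, where 0.0318% of all genes were called, and 1, TFRC, did not overlap, against 16.9%. Fold changes ran from -0.61 for TFRC to 0.54 for SLC40A1. Outer P3 cells against inner P3 cells gave 0 of 6, where the rate over all genes was 0.00%, and FTL and SLC40A1 did not overlap, against 22.9% of all genes. At an unadjusted p below 0.05 the first comparison had 0 members and the second had 1, FTL, and DESeq2 called 0 in both. No share of all genes is given at these settings. The difference between the zones in the response to passaging, tested as an interaction, was called for 0 of 6 members and 0.00% of all genes. It was largest for FTL, at 0.95 (SE 0.36, adjusted p = 0.640, edgeR).

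Levels of different genes were compared per kilobase of exon in the RefSeq annotation. Reads were counted on Ensembl gene models, so the lengths are approximate. In cartilage FTH1 had 23804 ± 2731 and FTL 9644 ± 755 CPM per kilobase (SD, n = 3), against 16.98 ± 2.70 for ACO1, 13.6 ± 3.4 for SLC40A1, 9.99 ± 2.31 for NCOA4 and 6.32 ± 1.28 for IREB2. In outer tissue SLC40A1, at 132 ± 18, was instead the highest after the ferritin chains among the genes compared. ACO1 had 36.3 ± 3.6, NCOA4 6.71 ± 1.32 and IREB2 6.38 ± 0.92. In inner P3 cells the values were 63.7 ± 5.2 for SLC40A1, 22.4 ± 1.9 for ACO1, 19.4 ± 1.1 for NCOA4 and 11.8 ± 1.6 for IREB2. NCOA4 and IREB2 were within their SDs of each other in outer tissue, and ACO1 and SLC40A1 in cartilage. TFRC is left out because its annotated 3′ end is short.

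HMOX1, which breaks down heme and releases its iron, and SLC11A2, which moves iron out of endosomes, were listed at 0 reads in all 14 libraries. Both lie on unplaced scaffolds of the assembly, and all 154 genes matched to such scaffolds were listed at 0, against 903 of 13981 genes on chromosomes (6.46%). Their zeros are therefore no measure of expression. SLC39A14, an importer of iron not bound to transferrin, had no row under its symbol. A row listed as PPP3CC in the count table and as SLC39A14 in the identifier table cannot be assigned to either of these neighbours on chromosome 14. That row had 143 to 183 CPM in outer P3 cells, against 615 to 785 CPM in outer tissue, and 148 to 187 CPM in inner P3 cells, against 483 to 996 CPM in inner tissue.

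Among other genes of iron handling, ceruloplasmin and lipocalin fell in P3 cells of both zones. Ceruloplasmin (CP), a ferroxidase that works with ferroportin, had 0.845 ± 0.890 CPM in outer P3 cells (SD, n = 2) and 0.477 ± 0.147 CPM in inner P3 cells, against 791 ± 497 CPM in outer tissue and 1257 ± 289 CPM in inner tissue (SD, n = 3). CP fell by 9.82 (SE 0.88, adjusted p = 8.9e-06, edgeR) in the outer zone and fell by 11.34 (SE 0.77, adjusted p = 6.7e-07, edgeR) in the inner zone. LCN2, which binds iron-loaded siderophores, had 16.5 ± 3.3 and 30.3 ± 33.1 CPM in outer and inner P3 cells, against 3633 ± 535 and 3507 ± 1584 CPM in outer and inner tissue. LCN2 fell by 7.78 (SE 0.96, adjusted p = 7.4e-05, edgeR) in the outer zone and fell by 6.85 (SE 0.76, adjusted p = 1.4e-05, edgeR) in the inner zone. The study lists LCN2 among its changed genes too, on these samples, so its direction is not independent evidence. In bulk samples fewer cells of a type and less RNA per cell cannot be told apart.

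Of the 12 tested plasma iron carriers and receptors, 0 rose and 2 fell in outer P3 cells, LCN2 and SLC39A8, and 0 rose and 4 fell in inner P3 cells, these and STEAP3 and TFR2, beside 16.7% and 25.7% of all genes called. TFR2 had few reads, 7 over the inner P3 libraries and 57 over the inner tissue libraries. The list medians were -0.92 and -1.30, beside -0.01 and 0.01 over all genes, and include genes of few reads such as TF and STEAP4. SLC39A8, an importer of iron, zinc and manganese, had 0.852 ± 0.328 CPM in outer P3 cells, against 9.16 ± 1.72 CPM in outer tissue, and 0.992 ± 0.610 CPM in inner P3 cells, against 14.2 ± 2.8 CPM in inner tissue. STEAP3, a ferrireductase of endosomes, had 10.1 ± 2.3 CPM in inner P3 cells, against 51.2 ± 42.2 CPM in inner tissue. Against cartilage, 3 rose and 3 fell in outer tissue, and 1 rose and 2 fell in inner tissue, beside 15.1% and 9.05% of all genes called. CYBRD1 rose in outer tissue by 1.16 (SE 0.29, adjusted p = 0.00665, edgeR). In inner tissue SLC39A8 rose, and HFE and LTF fell. HFE, a partner of the transferrin receptor, had 22.0 ± 8.8 CPM in outer tissue and 22.9 ± 7.9 CPM in inner tissue, against 74.0 ± 8.5 CPM in cartilage. STEAP2, another metalloreductase, had 60.9 ± 17.9 CPM in outer tissue, against 12.1 ± 2.8 CPM in cartilage, and it rose by 2.33 (SE 0.47, adjusted p = 0.00192, edgeR).

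Of the export and hepcidin genes, 9 had a row and only 4 had enough reads to be tested. CP, BMP2 and BMP6 fell in P3 cells of both zones, beside 8.30% of all genes lower in the outer zone and 12.1% in the inner zone. BMP6, a signal for hepcidin in liver, had 1.66 ± 0.17 CPM in outer P3 cells, against 5.45 ± 0.65 CPM in outer tissue, and 1.70 ± 0.17 CPM in inner P3 cells, against 4.76 ± 0.79 CPM in inner tissue. Hepcidin itself (HAMP) had 0 reads in all libraries, and the 16 reads of transferrin (TF) were all from a single library of inner tissue. Of 5 tested chaperones and regulators, 0 were called between P3 cells and tissue in either zone, beside 16.7% and 25.7% of all genes. Their medians were -0.48 and -0.68. Relative to cartilage 1 of the 5 fell in outer tissue, beside 15.1% of all genes called. It was PCBP2, which delivers iron to ferritin, at 501 ± 20 CPM in outer tissue, against 1189 ± 122 CPM in cartilage. In inner tissue 0 were called against cartilage, beside 9.05% of all genes.

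**Figure D4:**
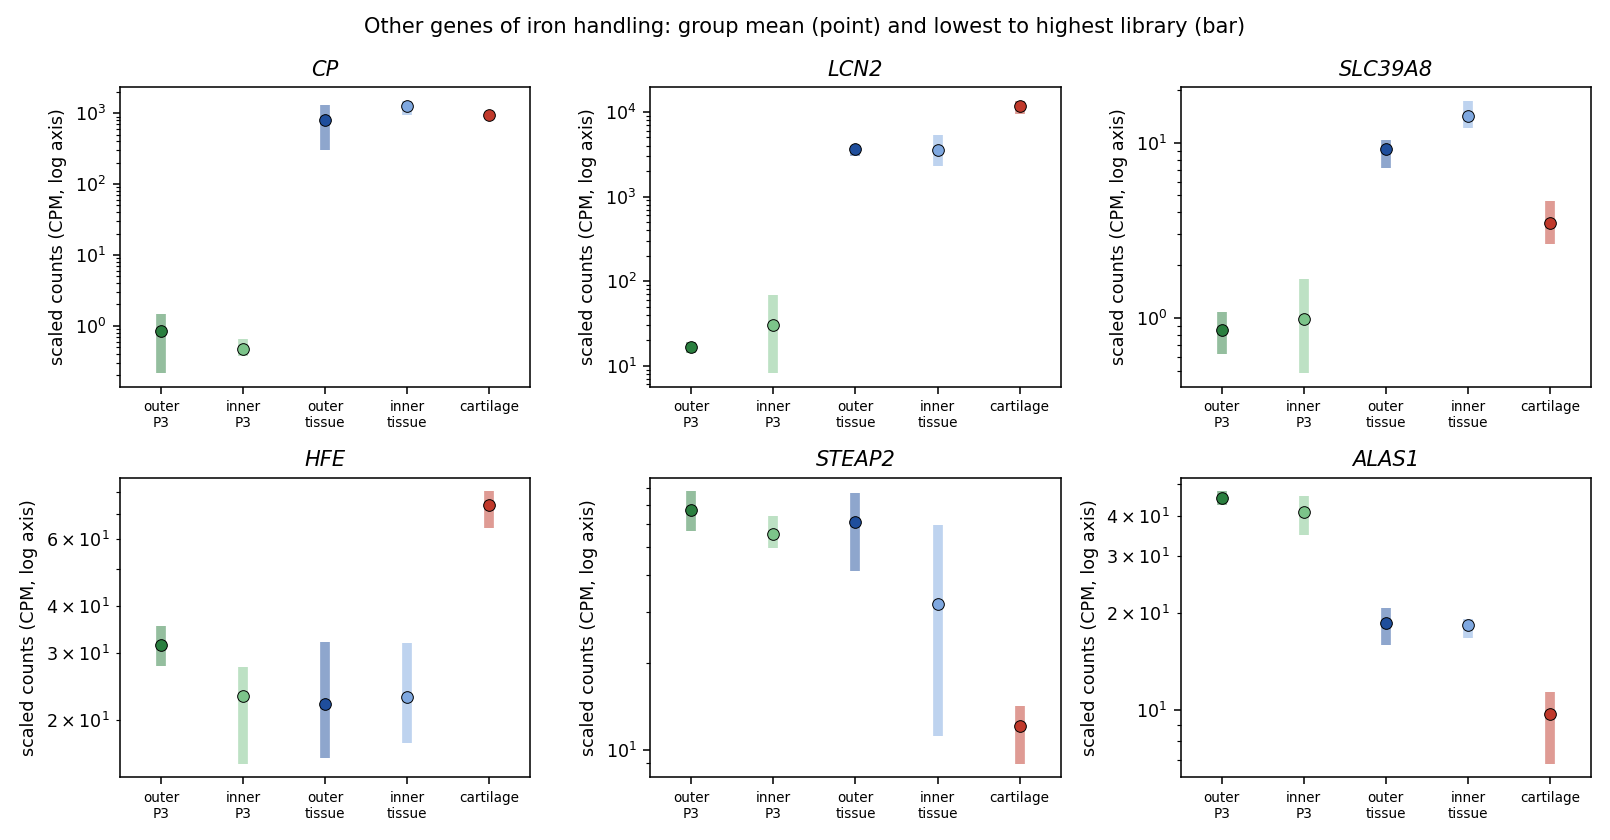
Scaled counts (CPM, log y axis) of CP, LCN2, SLC39A8, HFE, STEAP2 and ALAS1 by group (x axis), with the group mean as a point and the lowest to highest library as a bar. CP means were 0.845 and 0.477 CPM in outer and inner P3 cells, against 791, 1257 and 954 CPM in outer tissue, inner tissue and cartilage, and HFE was highest in cartilage, at 74.0 CPM.

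The genes most like each member across the 14 libraries, by Pearson r of log2(CPM + 1) among genes with a mean of at least 10 CPM, were taken as a description. For FTH1 they were ETS1 (r = 0.995), ZNF395 (0.992) and KYAT3 (0.992). For FTL they were SPR (0.986), KYAT3 (0.985) and ALDOC (0.981). TFRC had weaker partners, WDR41 (0.924), VTI1B (0.920) and POLDIP2 (0.912). SLC40A1 was closest to RAB4B (0.965), HIF1AN (0.959) and RAP2A (0.959). The 14 points share their group differences and library depths.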

How the data were processed

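Porcine meniscus cells, meniscus tissue and cartilage were profiled by bulk RNA-seq (stranded poly-A kit, strand setting of the counting not given in the sources used here). Per the labels and the study's methods, the authors used Trim Galore with cutadapt, then STAR on Sscrofa11.1, kept uniquely placed reads and deposited raw HTSeq counts per gene, used here as deposited. FTH1 has pseudogenes, so its count may be incomplete. Size-factor-scaled tables were not used. Genes with at least 10 reads over 14 libraries were fitted with edgeR 4.0.16 (R 4.3.3, limma 3.58.1), TMM scaling, a mean per group and a quasi-likelihood F test, with Benjamini-Hochberg adjustment over all tested genes. SE is the size of the log2 fold change over the root of F. Alternatives were DESeq2 1.42.0, other scalings and filters, a 2-fold test, fits on the compared libraries, a replicate block and leaving out each library; adding the FTH1 row to the counts was chosen after seeing the data. Symbols came from the count table for 12962 tested rows and from an identifier table for 890. Exon lengths and untranslated regions came from the RefSeq annotation of the same assembly. The members and lists were chosen with earlier results of these data known. All members were named. Other genes were mostly drawn, per fixed list and comparison, from up to 4 called genes with the highest mean CPM. Not all of those are named. Marker lists were macrophages, erythroid, endothelial, mural, chondrocyte, fibrous matrix and proliferating cells.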

Additional observations from a re-analysis of the deposited data

How the results depend on the processing

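FTH1 in P3 cells of both zones, FTL in inner P3 cells and SLC40A1 against cartilage were called under each alternative that was run, as was SLC40A1 for both P3 groups. Counts are members called, of 6. For these alternatives the share of all genes called is not given, so the counts show nothing particular to these genes. A test against a 2-fold change gave 1 for inner P3 against inner tissue, 0 for outer P3 against outer tissue and 1 for outer tissue against cartilage. FTL alone (adjusted p = 0.0105, edgeR) dropped out in the outer zone when only the libraries compared were fitted, leaving 1. An adjusted p below 0.05 with no fold minimum gave 5 and 5 for outer and inner P3 against tissue, 4 and 2 for outer and inner tissue against cartilage, and 6 and 6 for P3 against cartilage. Library totals alone gave 2 for inner tissue against cartilage. They moved the median of all genes by 0.31 and 0.24 for outer and inner tissue against cartilage, and the share of calls that were higher there to 78.4% and 71.9%, beside 56.8% and 49.2%. For outer and inner P3 cells against cartilage that share was 68.1% and 63.6%, beside 54.3% and 52.4%, with shifts of 0.31 and 0.24.

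Leaving out 1 library gave 1 to 3 calls in outer P3 against outer tissue, 2 to 4 in inner P3 against inner tissue, 2 to 5 in each P3 group against cartilage, 2 in outer and 1 in inner tissue against cartilage, and 0 between zones. TFRC in inner P3 cells against cartilage was lost without cartilage replicate 1 or inner P3 replicate 147 or 148, with library totals, with only the libraries compared and against a 2-fold change. In outer P3 cells it was gained with median-of-ratios factors, DESeq2, no filter, filterByExpr, only the libraries compared and without cartilage replicate 2. NCOA4 in outer P3 cells against cartilage was lost with median-of-ratios factors, DESeq2, filterByExpr, a 2-fold change and without cartilage replicate 1 or outer P3 replicate 148, and in inner P3 cells it was gained with library totals and without cartilage replicate 2 or 3. The low of 1 was without outer P3 replicate 148, and the highs of 5 were without cartilage replicate 2. These counts too have no share of all genes beside them.

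Values that changed sign were small and not called. TFRC in inner tissue against cartilage was -0.016 with median-of-ratios factors and with DESeq2, -0.0021 with filterByExpr and -0.15 to 0.37 with 1 library left out. IREB2 in outer tissue against cartilage was -0.018 with median-of-ratios factors and with DESeq2 and -0.10 to 0.18 with 1 library left out, and in inner tissue 0.20 with library totals and -0.14 to 0.14. Between tissue zones, leaving out 1 library gave -0.36 to 0.057 for FTH1, -0.36 to 0.11 for FTL, -0.076 to 0.14 for IREB2 and -0.21 to 0.089 for NCOA4, which was 0.040 with library totals. Between P3 zones it gave -0.13 to 0.64 for TFRC and -0.080 to 0.17 for IREB2. Per kilobase of the longest transcript NCOA4 was 22.3 in outer and 21.4 in inner P3 cells.

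Replicate numbers 2 and 3 recur in both tissue zones and cartilage, and 147 and 148 in both P3 groups, and no label says that they mark an animal. The tissue zones came from the same menisci per the study's supplement, yet numbers 5 and 6 each occur in 1 zone only. Deviations of same-numbered outer and inner libraries had r of 0.49 and 0.29 in tissue and 0.23 and 0.27 in cells, beside 0.31 for outer tissue 6 and inner tissue 3, whose numbers differ. With only 2 outer P3 libraries their deviations mirror each other, so the cell values are not separate. Outer P3 147 with inner P3 148 gave -0.27, and outer P3 148 with inner P3 147 gave -0.23. Same-numbered meniscus and cartilage libraries had r of -0.02, -0.23, -0.04 and -0.03, none above 0. With the replicate block, calls were 1 in outer tissue against cartilage (ACO1 lost, adjusted p = 0.0119, edgeR), 1 in inner tissue and 0 between zones, and IREB2 was -0.12 in outer tissue against cartilage and -0.042 between tissue zones. P3 cells and tissue share no numbers, so no block was fitted there.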

Other observations

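ALAS1 rose in P3 cells of both zones. ALAS1, the first enzyme of heme synthesis, whose relative ALAS2 carries an IRE, had 45.3 ± 3.1 CPM in outer P3 cells (SD, n = 2), against 18.6 ± 2.5 CPM in outer tissue, and 41.0 ± 5.6 CPM in inner P3 cells, against 18.3 ± 1.4 CPM in inner tissue (SD, n = 3). It rose by 1.28 (SE 0.20, adjusted p = 3.4e-04, edgeR) and by 1.16 (SE 0.18, adjusted p = 1.9e-04, edgeR), 1 call of 8 tested heme synthesis genes in each zone, beside 16.7% of all genes called in the outer zone and 25.7% in the inner zone. Against cartilage, 4 of 8 rose in outer P3 cells, and 3 rose and 1, CPOX, fell in inner P3 cells, beside 31.2% and 32.5% of all genes called. FECH, which inserts iron into heme, had 35.6 ± 1.7 CPM in outer P3 cells and 32.2 ± 3.7 CPM in inner P3 cells, against 14.3 ± 0.7 CPM in cartilage. Both tissue zones had 0 calls against cartilage, beside 15.1% of all genes for outer tissue and 9.05% for inner tissue. Of 9 genes of heme transport and breakdown, SLC48A1 fell in outer P3 cells relative to tissue, beside 16.7% of all genes called. BLVRB fell and ABCG2 rose in inner P3 cells, beside 25.7%. FLVCR1, a heme exporter, was higher than in cartilage in both tissue zones, at 7.00 ± 0.47 CPM in outer tissue and 6.38 ± 1.37 CPM in inner tissue, against 2.36 ± 0.90 CPM in cartilage. It was the only call of the 9 in outer tissue, beside 15.1% of all genes called. In inner tissue ABCG2 was called lower, at -1.63, and 9.05% of all genes were called.

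Of 15 tested genes of mitochondrial iron and iron-sulfur clusters, NFS1 and ABCB10 rose in outer P3 cells, and ABCB10 rose and ISCA2 fell in inner P3 cells, 2 calls in each zone beside the same 16.7% and 25.7% of all genes. Of the 12 NRF2 and BACH1 genes, which include regulators and targets that often move with ferritin, 0 were called between P3 cells and tissue in either zone. The shares of all genes there were again 16.7% and 25.7%. List medians were -0.13 in the outer zone and 0.07 in the inner zone. NQO1 had 52.5 ± 12.6 CPM in outer tissue and 56.1 ± 12.1 CPM in inner tissue, against 21.0 ± 6.0 CPM in cartilage, and was called in both. SLC7A11, a cystine importer, had 37.3 ± 9.3 CPM in inner tissue, against 6.94 ± 3.59 CPM in cartilage, and was called there. In outer tissue it was not called. Calls against cartilage were 1 of 12 in outer tissue and 2 in inner tissue, all higher. The shares of all genes called were 15.1% and 9.05%.

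Sums of fibrous matrix and mural markers were higher in P3 cells of both zones, and those of proliferation markers in the inner zone alone. The part of these markers in the iron gene results was not tested. The 6 fibrous matrix markers summed to 152320 to 171471 CPM in outer P3 cells and 193296 to 219814 CPM in inner P3 cells, against 11179 to 15377 CPM in outer tissue and 10821 to 13848 CPM in inner tissue. The 6 mural markers, ACTA2 chief among them, summed to 3733 to 6662 CPM and 3524 to 4885 CPM in outer and inner P3 cells, against 42.1 to 151 CPM and 11.53 to 405 CPM in outer and inner tissue. Both lists had 4 genes called higher and 1 lower in P3 cells of each zone, beside 16.7% and 25.7% of all genes called. The lower genes were RGS5 of the mural list, at -10.45 and -11.79 in outer and inner P3 cells, and DCN of the fibrous list, at -2.63 and -2.85. The 7 proliferation markers summed to 153 to 205 CPM in outer P3 cells, against 90.9 to 224 CPM in outer tissue, and to 172 to 339 CPM in inner P3 cells, against 81.3 to 126 CPM in inner tissue. Of 9 listed genes these 7 had a row, 1 of them at 0 in all libraries. Of the 6 tested, 0 rose and 1 fell in outer P3 cells, PCNA at -1.47, beside 8.36% of all genes higher and 8.30% lower. In inner P3 cells 3 rose and 0 fell, beside 13.6% of all genes higher and 12.1% lower.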
